A study of Mus musculus with 8 samples.

Results

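Null cells of the line null(PN), labelled Pkd1-/- Null, were compared with heterozygous cells of the line pkd1(PH), labelled Pkd1+/- Heterozygous, both cultured with DMSO, the solvent of the drug used elsewhere in the series. Each group had 2 RNA-seq libraries, 4 of the 8 in the series, and the other 4 came from the same lines after 50 nM THZ1, an inhibitor of the transcription kinase CDK7, for 6 h. Both lines are labelled as mouse kidney epithelial cells, and both grew in the same medium, which held 3% fetal bovine serum, insulin, transferrin, selenium, T3 and interferon gamma. The values are FPKM (fragments per kilobase of transcript scaled to the mapped fragments of a library), and 10805 of the 18631 genes in the files had a mean of at least 1 FPKM over the 4 DMSO libraries and were tested. Dhx58 and Ikzf4, both at a mean of 1 FPKM, were the last genes inside this limit, and Phospho1 and Ppp1r12b, both at 0.998 FPKM, were the first outside it. There is 1 line per genotype, so Pkd1 genotype and any other difference between the lines cannot be told apart. The labels do not say that the replicates were separate cultures, so the spread behind each p-value is that of these libraries alone and may be technical.

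Pkd1 encodes polycystin-1, a large membrane protein that pairs with the cation channel polycystin-2 and is found at the primary cilium, at cell junctions and at sites of attachment to the matrix. In autosomal dominant polycystic kidney disease, tubule cells that lose polycystin-1 grow into cysts. Work on such cells has dwelt on cAMP and calcium signalling, chloride and fluid secretion, the cell cycle, growth factor signalling and matrix.

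The label of the cells was checked against markers first. Krt8, Krt18 and Krt7, keratins of simple epithelium, were between 164 and 406 FPKM in every DMSO library, and the kidney cadherin Cdh16 was between 176 and 269. Other defining epithelial genes were near 0 in both lines: E-cadherin (Cdh1) was at 0.17 and 0.1 FPKM in heterozygous and 0.42 and 0.17 in null cells, Epcam was at most 0.13 FPKM in any DMSO library, and the epithelial regulators Grhl2 and Esrp1 were at most 0.01. Vimentin (Vim), a filament of mesenchymal and cultured cells, was high in both. Markers of single nephron segments were often under the filter, as were 7826 of the 18631 genes in the files. All 12 intercalated cell markers, 16 of 20 proximal tubule markers and 10 of 14 markers of the thick ascending limb and distal tubule were under it. So were 10 of 19 principal cell markers, with the water channel Aqp2 at 0.04 FPKM in null replicate 1 and 0 in the other libraries. The 9 principal cell markers above the filter included Krt7, Krt8, Krt18 and Cdh16. Among other cell types, 11 of 12 endothelial, 9 of 12 leukocyte, 7 of 10 podocyte and 11 of 14 fibroblast and pericyte markers were under it. The leukocyte antigen gene Ptprc was at 0.26 and 0.26 FPKM in heterozygous and 0.05 and 0.06 in null cells, the endothelial gene Pecam1 was at most 0.07 FPKM, and the fibroblast genes Pdgfra, Col1a2, Col3a1 and Dcn were at most 0.14 FPKM in every DMSO library.

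Replicates were close, with Pearson's r across genes of 0.997 in both DMSO groups on log2(FPKM + 1). Depth, estimated from the steps between low FPKM values, was 17.8 to 18.2 M fragments per DMSO library. Null replicate 1 had 3378 genes between 0.01 and 0.2 FPKM, against 2230 to 2268 in the other 3 DMSO libraries. Differences below are null minus heterozygous on log2(FPKM + 1), which understates the change of low genes, with SEs and Benjamini-Hochberg adjusted p-values from limma. A gene is called higher or lower where the adjusted p is below 0.05. Differences were many and mostly small: 3137 genes (29%) were called higher and 4429 (41%) lower in null cells, 70% in all, with a median absolute difference of 0.288. At least 2-fold differences were found for 361 genes higher (3.34%) and 370 lower (3.42%), 731 in all (6.77%). The libraries of the lines did not overlap for 9125 genes (84.5%). Of the 2-fold genes, 105 of the 361 had a heterozygous mean below 1 FPKM and 68 of the 370 a null mean below 1, so they passed the filter through the line in which they were high. The median over all tested genes was -0.07, and it lay between -0.03 and -0.00489 with the 3 other scalings between libraries. Since 70% of all genes are called, a gene list is read below by its split into higher and lower members and by its median. Each split is to be set beside the 29% higher and 41% lower of all tested genes. Counts of 2-fold members are to be set beside 3.34% and 3.42%.

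Pkd1 was at 4.58 and 5.3 FPKM in the heterozygous libraries and 1.69 and 1.32 in the null libraries. Each null library was below each heterozygous one, and the difference was -1.25 ± 0.10 SE (adjusted p = 1.9e-07). A value per gene does not show which exons the remaining RNA holds. Polycystin-2 RNA (Pkd2) was at 43.2 and 39.4 FPKM in heterozygous and 51.6 and 53.4 in null cells, higher in both null libraries (0.34 ± 0.05 SE, adjusted p = 4.98e-05). Of 28 tested genes of the polycystins and of the endoplasmic reticulum and ciliary proteins that help them mature, 7 were higher, 14 lower and 7 not called (median -0.15). That is 25% higher and 50% lower, against 29% and 41% of all tested genes. With the median of each gene's chromosome taken off, the split was 11 higher and 8 lower. The largest increase was in the polycystin relative Pkd2l2 (0.95), followed by Tsc1 (0.52), which restrains mTOR, and the glycosylation enzyme Alg5 (0.50). Dnajb11, a chaperone whose mutation causes an atypical form of polycystic disease, was at 117 and 119 FPKM in heterozygous and 82.2 and 80.5 in null cells (-0.54 ± 0.04 SE, adjusted p = 2.49e-07). The fibrocystin gene Pkhd1, mutated in recessive polycystic disease, was not called (-0.07, adjusted p = 0.45).

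The steepest increases, among genes whose log2(FPKM + 1) averaged 3 or more, are described first. Praf2, a membrane protein of the secretory pathway, was at 0.64 and 0.64 FPKM in the heterozygous libraries and 40.1 and 39.5 in the null libraries (4.64 ± 0.10 SE), and Igfbp2, which binds insulin-like growth factors, was at 2.16 and 3.08 FPKM in heterozygous and 69.2 and 76.2 in null cells (4.36 ± 0.10 SE). The iron carrier gene Lcn2, smooth muscle actin Acta2, the fatty acid hydroxylase Cyp4a12b, the prion relative Prnd, the myosin light chain Myl9 and the potassium channel Kcnk1 followed, at 3.37 to 3.83. Cyp4a12b has a near-identical copy, Cyp4a12a, which was also higher (1.88), and the split of fragments between the copies is uncertain. Ccbe1, a secreted protein needed for lymphatic vessel growth, was at 6.69 and 5.71 FPKM in the heterozygous libraries and 59 and 59.3 in the null libraries (3.07 ± 0.07 SE). Dmpk, the myotonic dystrophy protein kinase, was at 7.67 and 8.14 FPKM in heterozygous and 69.8 and 69.9 in null cells (2.99 ± 0.05 SE). The natriuretic peptide clearance receptor Npr3 (2.93 ± 0.07 SE) and Vgll3, a cofactor of TEAD transcription factors (2.83 ± 0.06 SE), rose from 6.66 and 6.25 to 54.4 and 57.5 FPKM and from 4.18 and 4.21 to 35 and 36.7 FPKM. The replicates of each gene in this group were close together, and no null library overlapped a heterozygous one. The adjusted p of all 12 increases was at most 1.35e-11.

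**Figure D1:**
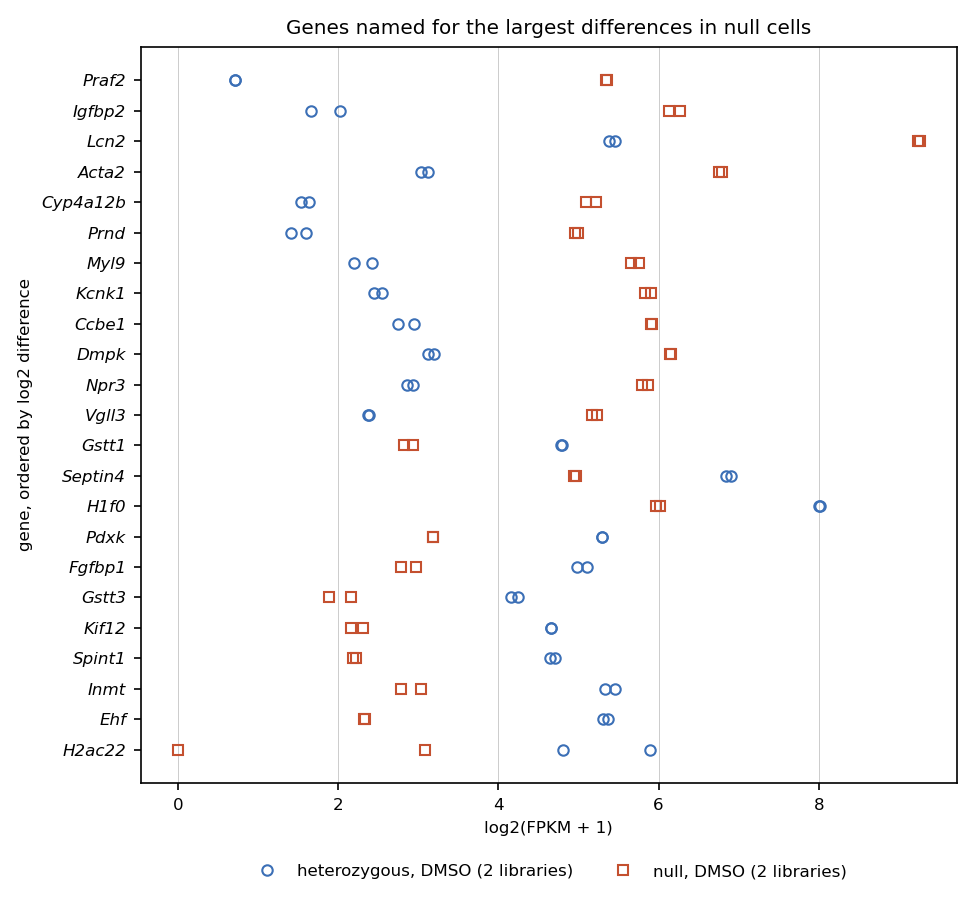
The level of 23 genes named for the largest differences, as log2(FPKM + 1) on the x axis, with 1 gene per row ordered by the log2 difference; circles are the 2 heterozygous and squares the 2 null DMSO libraries. The 2 symbols of a line nearly coincide for most genes, while H2ac22 has null libraries at 0 and 7.47 FPKM.

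The steepest decreases were chosen in the same way. Ehf, an ETS transcription factor of epithelia, Inmt, a methyltransferase, Spint1, which inhibits the membrane protease matriptase, the kinesin Kif12 and Fgfbp1, which releases fibroblast growth factors from the matrix, were lower, with differences of -2.17 to -3.01. Pdxk, the kinase that activates vitamin B6, was at 38.3 and 38.1 FPKM in the heterozygous libraries and 8.06 and 8.06 in the null libraries (-2.11 ± 0.05 SE). Linker histone H1f0, a variant of cells that have slowed or stopped dividing, was at 258 and 255 FPKM in heterozygous and 61.6 and 63.6 in null cells (-2.02 ± 0.05 SE). Each of these genes was lower in both null libraries with no overlap. The cytoskeletal GTPase Septin4 fell to 29.8 and 30.2 FPKM from 114 and 119 (-1.92 ± 0.05 SE), and the glutathione transferases Gstt1 (-1.91) and Gstt3 (-2.18) fell with it. The adjusted p of these 10 decreases was at most 5.52e-10. The histone gene H2ac22 had the largest fitted decrease (-3.81 ± 0.68 SE, adjusted p = 0.000244), but its values were 27 and 58.2 FPKM in heterozygous and 0 and 7.47 in null cells. Fragments of near-identical histone genes may have been shared among copies, which leaves its level uncertain, and leaving out null replicate 1 or null replicate 2 moved the difference to -2.26 or -5.35.

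Genes that copy DNA and divide the cell were lower in null cells almost throughout. Of 67 DNA replication genes, 64 were called lower and 1 higher, with a median of -0.86, and of 82 genes of mitosis and the spindle, 79 were lower and 3 not called, with a median of -0.87. Over all tested genes the shares were 41% lower and 29% higher. In bulk RNA, fewer dividing cells and less of these RNAs per cell cannot be told apart. The clamp loader subunit Rfc4 was at 64.8 and 61.4 FPKM in the heterozygous libraries and 20 and 17.9 in the null libraries (-1.69 ± 0.06 SE, adjusted p = 1.08e-10). Cdc6, which loads the replicative helicase onto origins, was at 18.9 and 18.6 FPKM in heterozygous and 5.28 and 5.31 in null cells (-1.65 ± 0.08 SE), and Cdc45, a part of the active helicase, was at 45.8 and 43.9 FPKM in heterozygous and 16.2 and 14.2 in null cells (-1.5 ± 0.06 SE). All 3 were lower by more than 2-fold in each null library. Rfc4 and Cdc45 lie on the proximal part of chromosome 16, where most genes were lower, as described below. Among mitotic genes, the centromere protein Cenpm was at 26.3 and 29.2 FPKM in heterozygous and 7.86 and 8.17 in null cells (-1.67 ± 0.08 SE), the centrosome kinase Nek2 at 31.1 and 31.5 FPKM in heterozygous and 10.2 and 10.5 in null cells (-1.51 ± 0.07 SE), and Aurkb, the kinase that corrects spindle attachments, at 52.1 and 53 FPKM in heterozygous and 17.9 and 17.7 in null cells (-1.51 ± 0.06 SE). The proliferation marker Mki67 was -0.99. The replication gene that went the other way was Orc4, of the origin recognition complex (13.7 and 12.7 FPKM against 18.7 and 16.5, 0.39 ± 0.07 SE, adjusted p = 0.000164), and the 2 that were not called were Orc1 and Orc3.

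The genes that act before replication did not all follow. Of 41 G1 cyclins, CDK inhibitors and E2F factors, 26 were lower, 6 higher and 9 not called (median -0.48), and the higher ones included all 3 D-type cyclins, the growth-signal cyclins of G1. Cyclin D1 (Ccnd1) was at 125 and 128 FPKM in the heterozygous libraries and 273 and 277 in the null libraries (1.12 ± 0.04 SE, adjusted p = 7.9e-11). Cyclin D2 (Ccnd2) was at 6.76 and 6.25 FPKM in heterozygous and 19.1 and 19.7 in null cells (1.44 ± 0.07 SE), and cyclin D3 (Ccnd3) at 43 and 48.3 FPKM in heterozygous and 68 and 67.6 in null cells (0.56 ± 0.06 SE). The lines did not overlap for any of them. Cdkn1a, which encodes the CDK inhibitor p21, was also higher (269 to 382 FPKM on average, 0.50). Other inhibitors were lower, namely Cdkn2c, which encodes p18 (-1.30), Cdkn1b, which encodes p27 (-0.84), and Cdkn2a (-0.75), as were the phosphatase gene Cdkn3 (-1.39), the repressors E2f7 (-1.15) and E2f8 (-1.28), and the S-phase cyclins Ccne1 (-0.55), Ccne2 (-0.72) and Ccna2 (-0.85). Cdk4 was lower by a small amount (-0.11), and Cdk6, Rb1 and E2f3 were not called. With chromosome medians taken off, the counts were 63 lower for replication, 80 for mitosis and 25 for the G1 list.

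**Figure D2:**
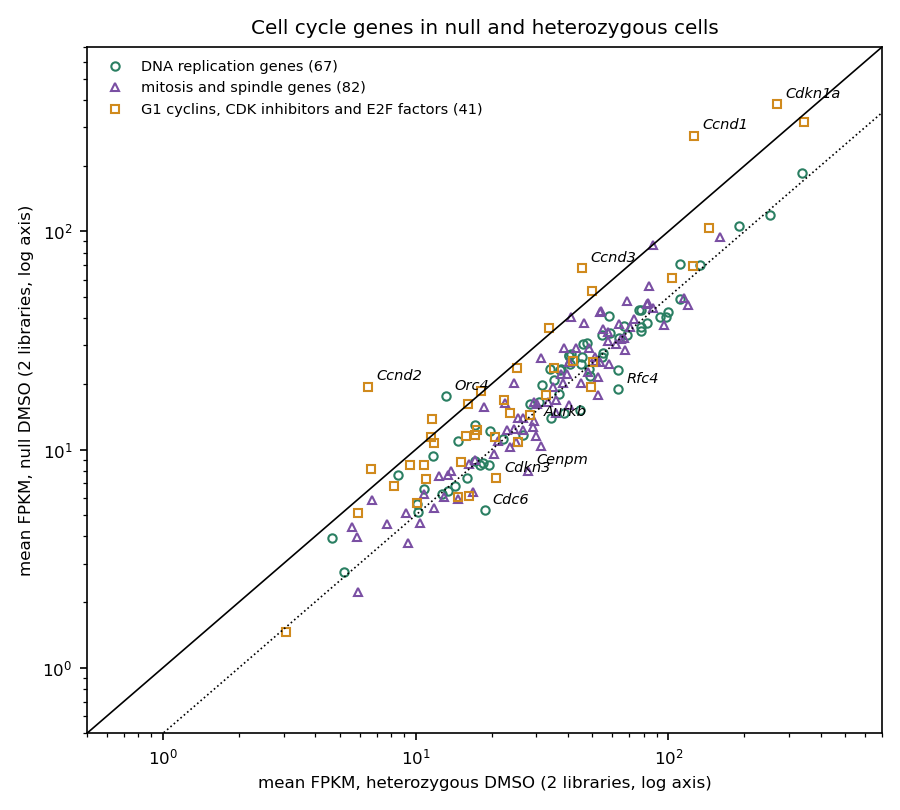
Mean FPKM in the 2 null DMSO libraries (y) against the 2 heterozygous DMSO libraries (x), both on log axes, for DNA replication genes (circles), mitosis and spindle genes (triangles) and G1 cyclins, CDK inhibitors and E2F factors (squares). The solid line marks equal levels and the dotted line a level 2-fold lower in null cells; most replication and mitosis genes lie near the dotted line, and the D-type cyclins and Cdkn1a above the solid one.

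E2F factors drive many replication genes through a short site, so the RefSeq promoter windows (GRCm38.p6, 250 bases before to 50 after each start) were searched on both strands for the letters TTTCCCGC or TTTGGCGC. Of the 56 tested replication genes with a window, 15 (26.8%) held a match, against 1.8% of all 27025 genes with windows. The latter include genes that were not tested here, so the shares rest on unlike sets of genes. Of those 15 genes, 14 were called lower and Orc3 was not called, while 95.5% of all replication genes tested were called lower (64 of 67). A link between the site and the direction was not tested. The stretch of Mcm5 is shown as an example with a clear decrease, with the matched letters in capitals, read 5′ to 3′ on the plus strand of GRCm38.p6 (chr8:75109310-75109417) and ending before the transcript start. The site is on the opposite strand. Mcm5, a subunit of the replicative helicase, was at 93.6 and 92.1 FPKM in heterozygous and 41.6 and 39.5 in null cells (-1.18 ± 0.05 SE).
Mcm5: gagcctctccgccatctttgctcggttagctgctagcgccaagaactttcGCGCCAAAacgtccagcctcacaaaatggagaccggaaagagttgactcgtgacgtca
A match describes letters in a window and is not a measured binding site.

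Contractile genes were higher in null cells. Of 51 actomyosin genes, 39 were called higher and 7 lower (median 0.43), and 11 were at least 2-fold higher. The called shares were 76.5% and 13.7%, against 29% and 41% of all tested genes, of which 3.34% were at least 2-fold higher. Alongside Acta2 and Myl9, the LIM protein gene Pdlim1, which ties actinin to stress fibres, was at 0.29 and 0.18 FPKM in the heterozygous libraries and 17.9 and 19 in the null libraries (3.98 ± 0.09 SE, adjusted p = 2.47e-12). Skeletal muscle actin Acta1 was at 1.46 and 1.51 FPKM in heterozygous and 18.8 and 17.9 in null cells (2.96 ± 0.08 SE), and Cdc42ep3, an effector of the GTPase CDC42, at 5.75 and 6.69 FPKM in heterozygous and 31.5 and 30.4 in null cells (2.15 ± 0.07 SE). In each case both null libraries were far above both heterozygous ones. The broad cytoskeletal genes moved less, with Actb at 0.47, Flna at 0.68, Myh9 at 0.35 and the transcription factor Srf at 0.27. Not all smooth muscle genes took part: Mylk, the kinase that activates myosin light chain, was lower (-0.74 ± 0.06 SE, adjusted p = 2.1e-07), as were Csrp2 (-1.12), calponin Cnn1 (-0.46) and smoothelin Smtn (-0.44). Rhoa, Rock2 and Cfl1 were not called.

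Serum response factor binds the CArG box, and this motif was searched in the same promoter windows on both strands. It was found for 9 of 46 contractile genes with a window (19.6%), against 1.81% of all genes, which again include genes not tested here. All 9 (Acta1, Actg1, Cnn2, Fhl1, Fhl2, Myl6, Myl9, Srf and Vcl) were called higher in null cells, as were 76.5% of all contractile genes tested (39 of 51). A link between the box and the direction was not tested. The Myl9 stretch (chr2:156775253-156775362, plus strand) and the Acta1 stretch (chr8:123894789-123894898, minus strand, given as the gene reads) are shown for the large increases of both genes, with the box in capitals.
Myl9: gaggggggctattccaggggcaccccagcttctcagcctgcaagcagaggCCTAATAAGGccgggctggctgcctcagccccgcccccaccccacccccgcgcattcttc
Acta1: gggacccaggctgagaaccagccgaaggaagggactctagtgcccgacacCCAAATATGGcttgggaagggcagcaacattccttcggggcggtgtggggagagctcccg
The boxes begin 161 and 73 bases before the starts. For the other 3 pairs of motif and list searched, the sterol element TCACNCCAC was in 2 of 39 sterol genes (5.1%, all genes 1.44%), the antioxidant element TGACNNNGC in 7 of 51 detoxification genes (13.7%, all genes 13.99%) and an NF-kB site in 1 of 21 injury genes (4.8%, all genes 5.14%).

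Matrix genes were mostly higher. Of 47 genes of collagens, laminins and the basement membrane, 33 were higher, 8 lower and 6 not called (median 0.45), and 14 were at least 2-fold higher. Of the fibroblast and pericyte markers, the 3 above the filter were also called higher (median 1.09), while the other 11 of 14 were under it, with Pdgfra, Col1a2, Col3a1 and Dcn near 0 as given above. These 3 were Col1a1, the calcium-binding S100a4 (22.4 and 24 FPKM in heterozygous and 50.4 and 50.2 in null cells, 1.09) and periostin Postn (12.9 and 11.6 FPKM in heterozygous and 16.7 and 15.3 in null cells, 0.36), which was no longer called with chromosome medians taken off (0.13, adjusted p = 0.163). Their part in the contractile and matrix differences was not tested. Fibulin-1 (Fbln1) was at 0 and 0.03 FPKM in the heterozygous libraries and 4.37 and 4.8 in the null libraries (2.46 ± 0.09 SE, adjusted p = 1.37e-10). The proteoglycan versican (Vcan) was at 0.06 and 0.04 FPKM in heterozygous and 3.8 and 4.04 in null cells (2.23 ± 0.09 SE) and fibulin-5 (Fbln5), of elastic fibres, at 0.03 and 0.03 FPKM in heterozygous and 3.59 and 3.7 in null cells (2.17 ± 0.09 SE). All 3 were near 0 in both heterozygous libraries. Abundant matrix genes also rose: thrombospondin-1 (Thbs1) from 269.8 and 260 to 936 and 976 FPKM (1.85 ± 0.04 SE) and fibronectin (Fn1) by 1.15, while collagen VII (Col7a1, 2.12), Ecm1 (2.05), Col5a1 (1.90) and the crosslinking enzyme Lox (1.99) had larger differences. Col1a1 was 2.14, while Col1a2, which encodes the partner chain of collagen I, was at most 0.11 FPKM in any DMSO library. In the other direction, Lamb3, a laminin chain of epithelial basement membranes, was at 12.3 and 13.4 FPKM in heterozygous and 7.3 and 8.4 in null cells (-0.65 ± 0.08 SE, adjusted p = 8.77e-06).

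Receptors and enzymes of the matrix showed a like split. Of 29 integrins and their partners, 22 were higher and 4 lower (median 0.43). These shares were 75.9% and 13.8%, against 29% and 41% of all tested genes. The laminin receptor Itga7 was at 10.8 and 11.5 FPKM in heterozygous and 36.5 and 39.3 in null cells (1.68 ± 0.06 SE), the vitronectin receptor Itgav at 36.4 and 32.7 FPKM in heterozygous and 80 and 80.1 in null cells (1.19 ± 0.05 SE) and the collagen-sensing kinase Ddr1 at 29.2 and 31.8 FPKM in heterozygous and 68.1 and 71.5 in null cells (1.17 ± 0.05 SE). The common chain Itgb1 was 1.16, whereas Itgb4, the hemidesmosome chain that binds laminin, was at 15.9 and 16.6 FPKM in heterozygous and 6.72 and 6.35 in null cells (-1.19 ± 0.07 SE, adjusted p = 6.62e-09), and the integrin activator Fermt1 was -0.89. Of 28 matrix proteases and their inhibitors, 21 were higher and 4 lower (median 0.42), and 2 were lower without heterozygous replicate 1. Serpine2, protease nexin-1, was at 0 and 0.08 FPKM in heterozygous and 38.8 and 39.6 in null cells (5.27 ± 0.07 SE, adjusted p = 1.07e-13). The serine protease Htra1 was 2.17, and the proteoglycan-cleaving Adamts1, Adamts4 and Adamts5 were 1.52, 1.45 and 1.5. Serpinb9, an inhibitor of granzyme B, was lower (-0.93).

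Epithelial state genes were lower in part. Of 31 tested epithelial state factors and surface proteases, 15 were lower (48.4%), 6 higher (19.4%) and 10 not called (median -0.16). Over all tested genes the shares were 41% lower and 29% higher. Of these 31, 9 were at least 2-fold lower, against 3.42% of all genes. With median-of-ratios scaling 11 of them were called higher and 15 lower, and with chromosome medians taken off 12 and 13, with a median of -0.02. After Ehf and Spint1, the tricellular junction receptor Lsr was lowest, at 42.5 and 45.6 FPKM in the heterozygous libraries and 13.9 and 15.1 in the null libraries (-1.54 ± 0.05 SE, adjusted p = 1.08e-10). Lower members also included the desmosome and cornified envelope genes Dsp (-1.48), Ppl (-1.36) and Pkp3 (-0.87), and tricellulin Marveld2 (-1.18). Jup, Elf3 and Crb3 were not called. Sfn, the epithelial 14-3-3 protein, was higher (2.97 and 3.7 FPKM in heterozygous and 15.9 and 16.6 in null cells, 2.0 ± 0.09 SE), and St14, the protease matriptase that Spint1 inhibits, was 0.78. Among 13 keratins and intermediate filaments, 6 were higher and 6 lower: Krt8 (-0.81), Krt18 (-0.87) and Krt19 (-1.22) were lower, and Krt7 (0.46), Krt20 (0.78), nestin Nes (0.51) and Vim (496 and 523 FPKM in heterozygous and 754 and 738 in null cells, 0.55) were higher.

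Junction genes divided evenly, with 13 of 39 higher, 13 lower and 13 not called. Each share was 33.3%, against 29% higher and 41% lower of all tested genes. Nectin-3 (Nectin3), an adhesion molecule of adherens junctions, was at 3.34 and 2.74 FPKM in the heterozygous libraries and 16.6 and 17.2 in the null libraries (2.15 ± 0.08 SE). N-cadherin (Cdh2) was at 74.6 and 74.3 FPKM in heterozygous and 214 and 211 in null cells (1.5 ± 0.04 SE) and p120 catenin (Ctnnd1), which stabilises cadherins, at 42.4 and 40.3 FPKM in heterozygous and 109 and 111 in null cells (1.39 ± 0.04 SE). These 3 were higher in both null libraries. The pore-forming claudin Cldn2 of the proximal tubule was at 7.06 and 6.32 FPKM in heterozygous and 0.65 and 0.48 in null cells (-2.30 ± 0.09 SE), the polarity kinase Prkcz at 4.48 and 4.97 FPKM in heterozygous and 0.23 and 0.38 in null cells (-2.13 ± 0.09 SE) and the tight junction scaffold Tjp3 at 2.2 and 2.69 FPKM in heterozygous and 0.37 and 0.51 in null cells (-1.26 ± 0.10 SE). The scaffold Tjp1 and F11r were not called, and beta-catenin Ctnnb1 was -0.29.

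Kidney transcription factors were lower more often than higher, at 16 lower and 7 higher of 26 (median -0.25). These shares were 61.5% and 26.9%, against 41% lower and 29% higher of all tested genes. Foxd1, known as a factor of the kidney stroma, was at 0 and 0 FPKM in the heterozygous libraries and 2.79 and 2.87 in the null libraries (1.94 ± 0.09 SE, adjusted p = 1.14e-09). Irx3 was at 0.53 and 0.55 FPKM in heterozygous and 3.71 and 3.18 in null cells (1.53 ± 0.10 SE), and Tfap2b at 3.02 and 3.33 FPKM in heterozygous and 7.34 and 7.92 in null cells (1.05 ± 0.09 SE). Gata3, of the ureteric bud and collecting duct, went the other way (2.59 and 2.62 FPKM in heterozygous and 0.95 and 0.72 in null cells, -0.98 ± 0.10 SE), with Foxc1 (-0.76), Pax2 (-0.53) and Pax8 (-0.21). Of 29 Hox genes, 13 were lower and 6 higher, but 8 were lower with median-of-ratios scaling or without heterozygous replicate 2 or null replicate 2, and 3 were higher without null replicate 2. With chromosome medians taken off the balance turned, to 9 higher and 6 lower. In the main fit 20.7% of the Hox genes were higher and 44.8% lower, against 29% and 41% of all tested genes. The posterior gene Hoxb13 had the largest difference (8.1 and 8.54 FPKM in heterozygous and 1.5 and 1.61 in null cells, -1.87 ± 0.08 SE). Of the segment markers above the filter, 1 was higher and 3 lower of 4 for the proximal tubule, 1 and 2 of 4 for the thick ascending limb and distal tubule (2 and 2 with median-of-ratios scaling), and 4 and 5 of 9 for principal cells. Megalin Lrp2, an endocytic receptor of the proximal tubule, was higher, at 0.51 and 0.45 FPKM in heterozygous and 4.45 and 5.14 in null cells (1.97 ± 0.09 SE), as were Cldn19 (0.43) of the thick ascending limb and the principal cell markers Cdh16 (0.53), Krt7 and Tmem45b (0.46). The transpeptidase Ggt1 was lower (17.4 and 20.4 FPKM in heterozygous and 1.76 and 2.26 in null cells, -2.73 ± 0.09 SE), with the water channel Aqp1 (185 and 196 FPKM in heterozygous and 58.8 and 66.1 in null cells, -1.59 ± 0.06 SE) and Hsd11b2, which inactivates glucocorticoid in the collecting duct (9.46 and 10.2 FPKM in heterozygous and 2.29 and 2.15 in null cells, -1.75 ± 0.10 SE).

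Genes of the primary cilium were lower more often than higher. Of 75 tested, 47 were lower (62.7%), 7 higher (9.33%) and 21 not called, against 41% lower and 29% higher of all tested genes. The median was -0.24 against -0.07 over all genes, and the differences were small, with 1 gene past 2-fold. That gene was Ift57, of the transport complex that builds the cilium, at 22.4 and 22.4 FPKM in the heterozygous libraries and 11.1 and 9.63 in the null libraries (-1.04 ± 0.07 SE, adjusted p = 3.7e-08). The hedgehog effector Gli3 was at 4.41 and 4.28 FPKM in heterozygous and 1.75 and 1.88 in null cells (-0.93 ± 0.08 SE) and the transition zone protein B9d1 at 33 and 36.9 FPKM in heterozygous and 18.6 and 17.5 in null cells (-0.92 ± 0.06 SE). The null libraries were below the heterozygous ones for all 3. Ift88, Ift46, Bbs2, Smo and the meckelin gene Tmem67 were not called. Tulp3, which carries receptors into the cilium, was at 18.9 and 19.7 FPKM in heterozygous and 33.2 and 31.5 in null cells (0.72 ± 0.05 SE), the highest of the 7. With chromosome medians taken off, 38 were lower and 8 higher.

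**Figure D3:**
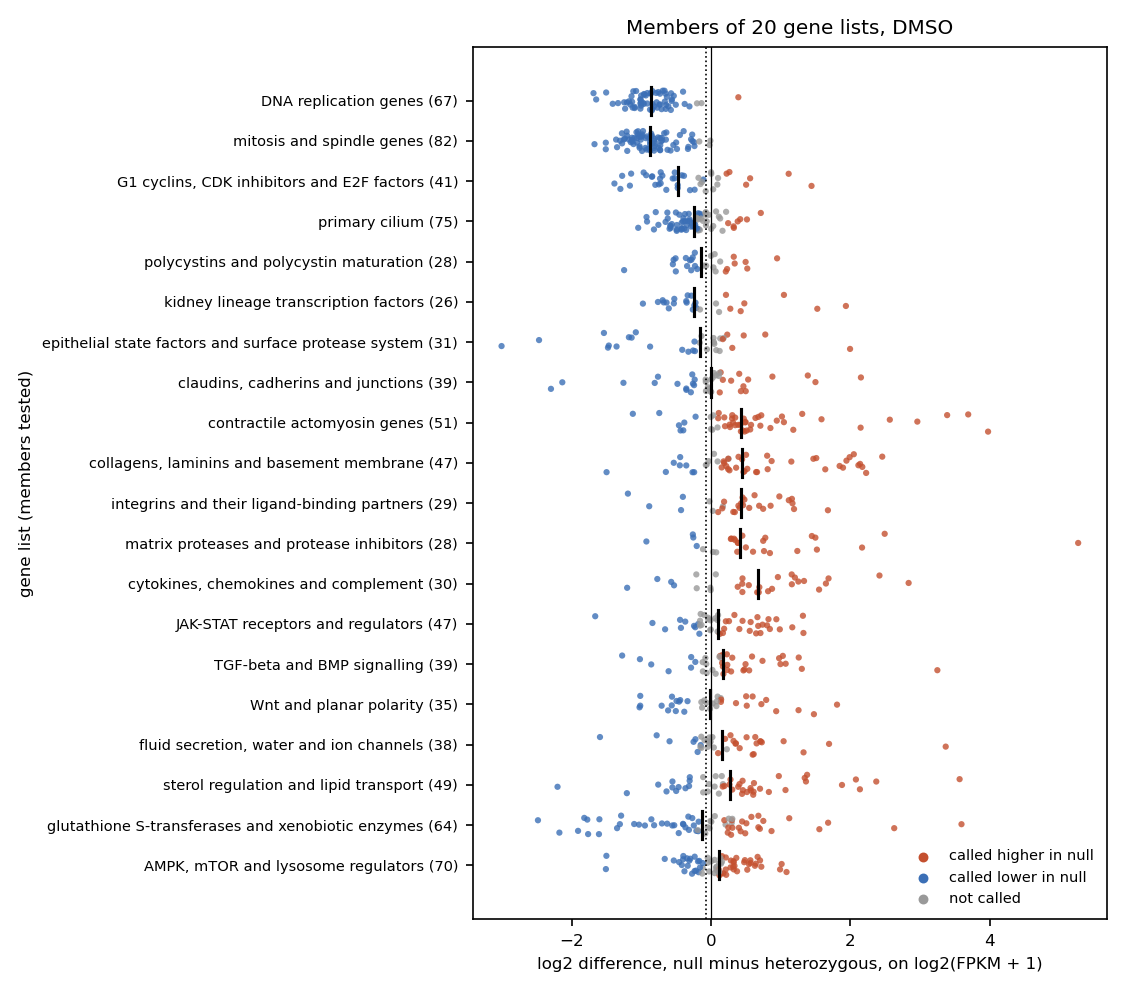
The log2 difference (x) of each tested member of 20 gene lists, 1 list per row with its number of tested members; orange points were called higher and blue points lower in null cells, grey points were not called, the short black bars are list medians and the dotted line is the median of all tested genes. Replication and mitosis lie to the left almost entirely, and contractile, matrix, integrin and protease lists mostly to the right.

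Growth factor genes changed in both directions. Of 36 genes of receptor tyrosine kinases and their ligands, 19 were higher and 11 lower (median 0.23), and 7 were lower with chromosome medians taken off. The main shares were 52.8% and 30.6%, against 29% and 41% of all tested genes. Vegfa, the main angiogenic factor, was at 8.71 and 9.51 FPKM in the heterozygous libraries and 31.1 and 32.2 in the null libraries (1.69 ± 0.06 SE). Hbegf, a ligand of the EGF receptor, was at 26.2 and 29.6 FPKM in heterozygous and 82.1 and 82.8 in null cells (1.53 ± 0.05 SE), and Gdnf, the ligand that induces the ureteric bud, at 0.17 and 0.17 FPKM in heterozygous and 2.38 and 2.58 in null cells (1.57 ± 0.09 SE). The PDGF ligands Pdgfc (1.07), Pdgfb (0.97) and Pdgfa (0.31) were also higher. The receptor Fgfr3 was at 8.07 and 8.68 FPKM in heterozygous and 0.73 and 0.92 in null cells (-2.36 ± 0.09 SE), and Vegfb was -0.86. The receptors Egfr (-0.19), Erbb2 (-0.35), Erbb3 (-0.54) and Met (-0.32) were lower by small amounts. In the insulin-like growth factor system, Igfbp7 was higher (351 and 400.2 FPKM in heterozygous and 751 and 701 in null cells, 0.95), the insulin receptor adapter Grb14 was lower (4.24 and 3.89 FPKM in heterozygous and 1.15 and 1.03 in null cells, -1.28), and the receptor Igf1r was not called.

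TGF-beta and BMP genes were higher for 23 and lower for 7 of 39 (median 0.17). These shares were 59.0% and 17.9%, against 29% and 41% of all tested genes. Ltbp2, a latent TGF-beta binding protein of microfibrils, was at 0.59 and 0.5 FPKM in the heterozygous libraries and 14 and 13.4 in the null libraries (3.25 ± 0.08 SE), its relative Ltbp1 at 5.69 and 5.78 FPKM in heterozygous and 15.5 and 15.8 in null cells (1.30 ± 0.06 SE) and the BMP antagonist noggin (Nog) at 0.37 and 0.34 FPKM in heterozygous and 2.23 and 2.26 in null cells (1.26 ± 0.10 SE). Follistatin Fst (1.07), the inhibitory Smad7 (1.03), activin subunit Inhba (0.98) and Tgfb1 (0.47) were higher. Bmp4 was at 2.15 and 2.21 FPKM in heterozygous and 0.37 and 0.26 in null cells (-1.28 ± 0.11 SE), and its target Id1 at 28 and 32.6 FPKM in heterozygous and 15.9 and 13.1 in null cells (-1.02 ± 0.09 SE). Both were lower in each null library, whereas Ltbp2, Ltbp1 and Nog were higher. Wnt genes were split, with 12 higher and 13 lower of 35 (13 and 12 with chromosome medians taken off). Their shares were 34.3% and 37.1%, against 29% and 41% of all tested genes. The ligands Wnt7a (14.6 and 13.8 FPKM in heterozygous and 52.8 and 51.8 in null cells, 1.81 ± 0.06 SE) and Wnt10a (17.8 and 19.6 FPKM in heterozygous and 55.7 and 51.9 in null cells, 1.48 ± 0.06 SE) rose, and the receptors Fzd4 (-1.02) and Ror1 (-1.03) fell. In the Notch pathway (11 higher, 6 lower of 21) the receptor Notch1 rose (6.64 and 5.94 FPKM in heterozygous and 13.6 and 14 in null cells, 1.02 ± 0.07 SE), while the ligand Jag1 fell (95.5 and 94 FPKM in heterozygous and 44.8 and 47.1 in null cells, -1.03 ± 0.04 SE) with the targets Hes1 (-0.95) and Hey1 (-0.69).

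Inflammatory ligands and complement were higher as a group. Of 30 tested cytokines, chemokines and complement genes, 21 were higher and 4 lower, with a median of 0.68, and 10 were at least 2-fold higher. The called shares were 70% and 13.3%, against 29% and 41% of all tested genes, of which 3.34% were at least 2-fold higher. Complement C1s1, a protease of the classical pathway, was at 0.27 and 0.12 FPKM in the heterozygous libraries and 7.29 and 7.77 in the null libraries (2.84 ± 0.10 SE), the central component C3 at 15.1 and 13.8 FPKM in heterozygous and 82.1 and 81.4 in null cells (2.42 ± 0.05 SE) and Cd59a, which blocks the membrane attack complex, at 11.3 and 11 FPKM in heterozygous and 38.1 and 36.1 in null cells (1.65 ± 0.05 SE). C1ra was 1.55, and chemokines for neutrophils (Cxcl2 1.21, Cxcl3 1.16) and T cells (Cxcl11 1.69, Ccl20 1.26) were higher too. Ccl2, which attracts monocytes, went the other way, at 117 and 108 FPKM in heterozygous and 52.6 and 44.2 in null cells (-1.20 ± 0.08 SE, adjusted p = 3.61e-08), and under THZ1 the same difference was 0.22. Among 35 tubular injury and cyst markers, 21 were higher and 10 lower (median 0.40), with the lipid droplet protein Plin2 at 54.9 and 55.1 FPKM in heterozygous and 143 and 140.1 in null cells (1.35 ± 0.05 SE). Havcr1, which encodes kidney injury molecule 1, was lower (-0.30).

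Receptors, ligands and regulators of JAK-STAT signalling and related cytokines were higher for 23 and lower for 10 of 47 (6 lower with median-of-ratios or upper-quartile scaling, 5 with chromosome medians taken off). Il1rl1, the receptor of interleukin-33, was at 14.8 and 14.1 FPKM in the heterozygous libraries and 37.5 and 37.9 in the null libraries (1.33 ± 0.05 SE), and the cytokine Lif at 19.2 and 19.3 FPKM in heterozygous and 49.5 and 49.7 in null cells (1.32 ± 0.06 SE). Il1r1, the receptor of interleukin-1, went the other way, at 6.76 and 5.99 FPKM in heterozygous and 1.15 and 1.52 in null cells (-1.66 ± 0.10 SE). The interferon gamma receptor chain Ifngr2 was at 22.2 and 24.7 FPKM in heterozygous and 54.7 and 52.9 in null cells (1.17 ± 0.05 SE), and its neighbours on distal chromosome 16, Il10rb (0.99), Ifnar2 (0.81) and Ifnar1 (0.74), were higher with it. The median of that part of the chromosome was 0.30. Antigen presentation genes were divided, at 14 higher and 15 lower of 36 (38.9% and 41.7%, against 29% and 41% of all tested genes). Fcgrt (0.80), H2-T23 (0.63) and Tapbp (0.56) rose. The class II genes Cd74 (29.1 and 31.4 FPKM in heterozygous and 11.7 and 12.1 in null cells, -1.28 ± 0.05 SE) and H2-Eb1 (-1.13) fell, as did Raet1d (-1.16), a stress ligand with near-identical copies whose value is uncertain. In the death receptor and Bcl2 families, 15 were higher and 17 lower of 42 (15 and 14 with chromosome medians taken off). These shares, 35.7% and 40.5%, were near the 29% and 41% of all tested genes. Fas was at 5.7 and 6.53 FPKM in heterozygous and 30.6 and 28.1 in null cells (2.09 ± 0.07 SE), the decoy receptor Tnfrsf23 at 1.14 and 1.13 FPKM in heterozygous and 11.6 and 11.2 in null cells (2.54 ± 0.08 SE) and Pmaip1, the BH3-only protein Noxa, at 26.4 and 25.2 FPKM in heterozygous and 92.6 and 84.8 in null cells (1.74 ± 0.05 SE).

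In the pathways most often linked to cyst fluid, cAMP genes split evenly, with 15 higher, 15 lower and 1 not called of 31. Each share was 48.4%, against 29% higher and 41% lower of all tested genes. Gnai1, an inhibitory G protein subunit, was at 0 and 0 FPKM in the heterozygous libraries and 3.81 and 3.32 in the null libraries (2.19 ± 0.09 SE). The inhibitory adenosine receptor Adora1 was at 9.51 and 9.77 FPKM in heterozygous and 2.86 and 3.12 in null cells (-1.42 ± 0.08 SE) and the cAMP phosphodiesterase Pde4b at 5.13 and 5.52 FPKM in heterozygous and 2.15 and 1.68 in null cells (-1.12 ± 0.09 SE). The vasopressin receptor Avpr2 was near 0 in both lines. Of 38 genes of fluid and ion transport, 19 were higher (50%) and 7 lower (18.4%), with a median of 0.15. Alongside Kcnk1, the bicarbonate cotransporter Slc4a4 (1.98 and 1.8 FPKM in heterozygous and 8.37 and 8.34 in null cells, 1.70 ± 0.07 SE) and carbonic anhydrase Car13 (1.33) rose, while Car2 (-0.78) fell with Aqp1. The chloride loader Slc12a2 was 0.41 and the calcium-activated channel Ano1 0.36, and the chloride channel Cftr was not called (0.02). Of 45 calcium genes, 22 were higher and 9 lower (median 0.14), with the nucleotide receptor P2ry6 (1.32 and 1.41 FPKM in heterozygous and 6.71 and 5.06 in null cells, 1.53 ± 0.12 SE) highest and the mitochondrial uniporter Mcu (26 and 27.6 FPKM in heterozygous and 16.8 and 16.1 in null cells, -0.67 ± 0.05 SE) among the lowest.

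Lipid genes differed by function. Of 49 genes of sterol regulation and lipid transport, 28 were higher and 12 lower (median 0.28). These shares were 57.1% and 24.5%, against 29% and 41% of all tested genes. The uptake receptor Lrp1 was at 5.6 and 5.13 FPKM in the heterozygous libraries and 30.1 and 33.9 in the null libraries (2.37 ± 0.07 SE), the cholesterol exporter Abca1 at 0.01 and 0.02 FPKM in heterozygous and 3.39 and 3.55 in null cells (2.14 ± 0.09 SE) and the fatty acid carrier Fabp5 at 0 and 0.12 FPKM in heterozygous and 3.16 and 3.82 in null cells (2.08 ± 0.12 SE). Cholesterol efflux from the lysosome was also represented among the increases, by Npc1 (1.07) and Npc2 (0.83). Insig1, which holds sterol-sensing factors in the endoplasmic reticulum, was lower, at 97.5 and 99.7 FPKM in heterozygous and 42.5 and 41.8 in null cells (-1.21 ± 0.05 SE), and the sterol-regulated transcription factor gene Srebf2 was -0.46. Of 70 AMPK, mTOR and lysosome genes, 31 were higher and 22 lower, and 41 and 10 with chromosome medians taken off. The lysosomal protease Ctsd was higher (362 and 362 FPKM in heterozygous and 726 and 739 in null cells, 1.01 ± 0.04 SE), with Lamp1 (0.70) and the lysosomal regulator Tfeb (0.63). Rragd (2.6 and 2.57 FPKM in heterozygous and 0.26 and 0.26 in null cells, -1.51 ± 0.09 SE) and Rragb (-1.5), GTPases that signal amino acids to mTOR, were lower.

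Detoxification enzymes were divided, at 22 higher and 31 lower of 64 (median -0.13), with 5 and 13 past 2-fold. The called shares were 34.4% and 48.4%, against 29% and 41% of all tested genes, of which 3.34% and 3.42% were past 2-fold. Cyp1b1, a cytochrome that oxidises steroids and aromatic compounds, was at 0.93 and 0.76 FPKM in the heterozygous libraries and 21.8 and 20.8 in the null libraries (3.60 ± 0.09 SE), the aldehyde dehydrogenase Aldh1a7 at 2.08 and 1.92 FPKM in heterozygous and 18.3 and 16.9 in null cells (2.63 ± 0.09 SE) and the drug exporter Abcb1b at 0 and 0.01 FPKM in heterozygous and 2.28 and 2.17 in null cells (1.68 ± 0.09 SE). Glutathione transferases of the theta and mu classes (Gstt1, Gstt2, Gstt3, Gstm1 and Gstm2) were lower, with differences of -1.60 to -2.18; members of a class are alike in sequence, so single values are uncertain. In amino acid metabolism, brain-type creatine kinase Ckb was at 0.26 and 0.11 FPKM in heterozygous and 14.9 and 14.3 in null cells (3.72 ± 0.08 SE) and Ass1, which makes argininosuccinate for arginine, at 75.2 and 71.5 FPKM in heterozygous and 219 and 213 in null cells (1.55 ± 0.04 SE). Cbs, the entry enzyme of transsulfuration, was at 5.67 and 5.4 FPKM in heterozygous and 0.56 and 0.42 in null cells (-2.13 ± 0.09 SE), and the asparagine synthetase Asns was -0.78. Of 43 such genes, 12 were higher and 21 lower (median -0.14), which is 27.9% and 48.8% against 29% and 41% of all tested genes. Of 34 glucose, lactate and amino acid transporters, 7 were higher and 17 lower (median -0.17), with 4 higher without heterozygous replicate 1 and 11 with chromosome medians taken off. Of these transporters, 20.6% were called higher and 50% lower in the main fit, against 29% and 41% of all tested genes. The glutamine transporter Slc38a1 was at 7.58 and 7.12 FPKM in heterozygous and 1.21 and 1.45 in null cells (-1.84 ± 0.09 SE), and the creatine transporter Slc6a8 rose (12.3 and 12.8 FPKM in heterozygous and 24.6 and 24.8 in null cells, 0.93).

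Smaller lists added single genes. Of 23 annexins, galectins and S100 proteins, 15 were higher and 3 lower (median 0.30), led by annexin A1 (Anxa1), an anti-inflammatory phospholipid-binding protein (264 and 273 FPKM in heterozygous and 613 and 580.2 in null cells, 1.15 ± 0.04 SE). Clock genes were 5 higher and 7 lower of 20 (6 and 4 with chromosome medians taken off), with Nfil3 (0.98) and Bhlhe40 (0.76) at the top. Their shares, 25% higher and 35% lower, were near the 29% and 41% of all tested genes. Imprinted genes were 6 higher and 5 lower of 18 (33.3% and 27.8%, against 29% and 41% of all tested genes). Impact (9.17 and 7.59 FPKM in heterozygous and 25.6 and 25.2 in null cells, 1.5 ± 0.08 SE) and Peg10 (1.09) rose, and Plagl1 (-1.12) and Mest (-0.92) fell.

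Some genes were present in 1 line only, at a mean of at least 1 FPKM there and at most 0.1 in both DMSO libraries of the other. There were 37 such genes in null cells and 6 in heterozygous cells. This choice used the levels themselves, so the lists are a description. Beside Serpine2, Fbln1, Vcan, Fbln5, Gnai1, Abca1, Lox and Foxd1, the null genes held the retrotransposon-derived Rtl8b (0 and 0 FPKM in heterozygous and 9.54 and 12.7 in null cells), the neuronal adapter Bex1 (0 and 0 FPKM in heterozygous and 6.91 and 8.41 in null cells), Mmd (0 and 0 FPKM in heterozygous and 5.59 and 5.38 in null cells) and the heparan sulfate sulfotransferase Hs6st2 (0.05 and 0 FPKM in heterozygous and 3.77 and 3.6 in null cells). Of the 37, Rtl8b, Bex1, Hs6st2, Prrg1 and Morc4 are on the X chromosome. Rps27rt and H2ac4 belong to families of near-identical copies and are uncertain. The heterozygous genes were the receptor-modifying Ramp3, Tmem100, the tubular protein Umod (2.18 and 2.25 FPKM, and 0 in both null libraries), Cblc, Ppp1r1b and the zinc finger gene Zfp973. In the THZ1 libraries, which this choice did not use, Rps27rt was at 0 in all 4, Zfp973 was at 1.51 and 0 FPKM in heterozygous and 1.85 and 3.08 in null cells, and H2ac4 was at 0 and 0.6 against 1.19 and 0.56. For the other 40 genes both libraries of the line that expressed the gene under DMSO stayed above both libraries of the other line. These genes were chosen for a wide gap between the same lines, and under DMSO 84.5% of all tested genes did not overlap.

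**Figure D4:**
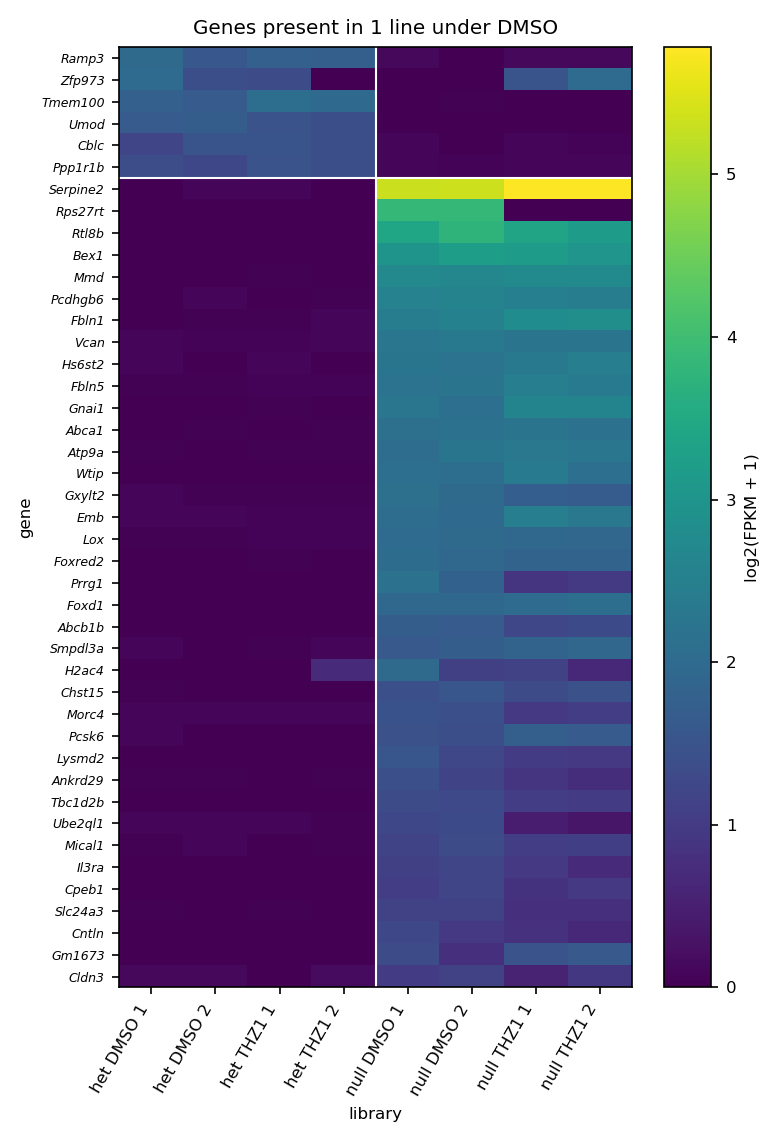
Level of the 6 genes present only in heterozygous and the 37 present only in null DMSO libraries, as log2(FPKM + 1) on the colour scale, with genes in rows and the 8 libraries of the series in columns; white lines part the 2 lines and the 2 gene sets. Serpine2 is brightest, and in the THZ1 columns Rps27rt and Zfp973 depart from the DMSO pattern.

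Differences followed the chromosome of a gene, placed by RefSeq coordinates of GRCm38.p6, the assembly also known as mm10. On chromosome 18, 234 of 278 tested genes were higher and 15 lower in null cells, 84.2% and 5.4% against 29% and 41% of all genes, and the median was 0.56, with a median FPKM ratio of null to heterozygous of 1.51. The 5 windows of 10 Mb on this chromosome with at least 20 tested genes had medians between 0.42 and 0.57. Chromosome 3 (median 0.23), 17 (0.15) and 2 (0.15) were also on the higher side, and 11 (-0.34), 16 (-0.33), 1 (-0.32) and 19 (-0.25) on the lower side. Chromosomes 4 to 9, 13, 14 and X lay between -0.09 and -0.02, close to the median of all genes.

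On chromosome 16 the direction turned within the chromosome. Over the first 50 Mb, 203 of 249 tested genes were lower and 20 higher (median -0.52, FPKM ratio 0.682), and all 5 windows of 10 Mb had medians between -0.54 and -0.50. Beyond 50 Mb, 76 of 102 were higher and 10 lower (median 0.30, ratio 1.25). On chromosome 2, 231 of 309 genes from 10 to 80 Mb were higher and 26 lower (median 0.36, ratio 1.33), while from 90 Mb on 177 of 512 were higher and 151 lower (median 0.02). These segments were chosen after the windows had been seen and are described without a test. In the THZ1 libraries the medians were 0.37 for chromosome 18, -0.74 and 0.13 for the 2 parts of chromosome 16, and -0.28 for all tested genes. DNA was not analysed here, so the number of copies of these segments in either line was not tested.

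**Figure D5:**
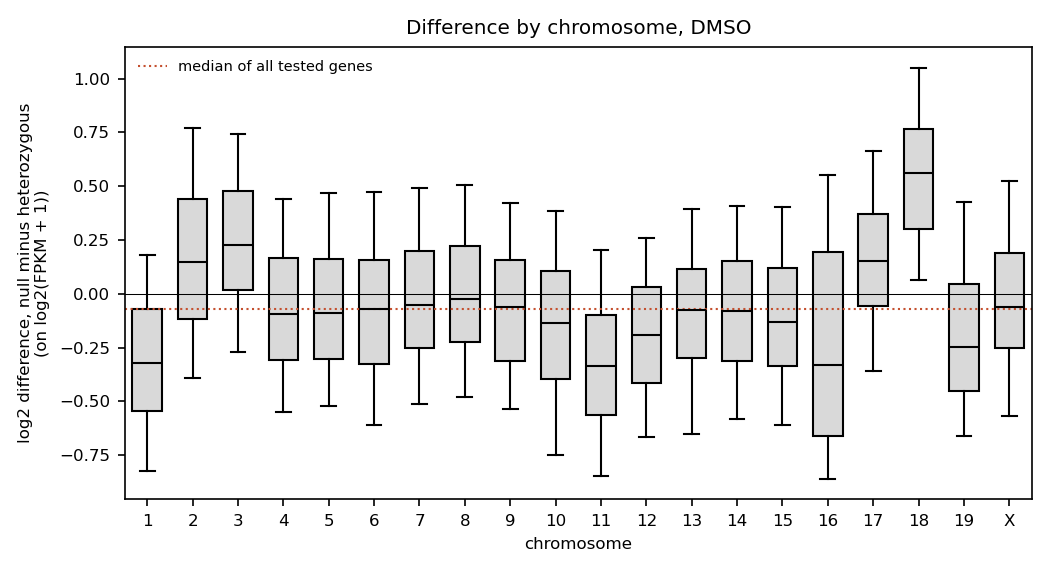
Log2 difference between null and heterozygous DMSO cells (y, on log2(FPKM + 1)) by chromosome (x) for all tested genes; boxes span the quartiles with the median as a line, whiskers reach the 10th and 90th percentiles, and the dotted line is the median of all tested genes. Chromosome 18 stands highest, chromosomes 1, 11 and 16 lowest, and the box of chromosome 16 is the widest.

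Several genes named above lie in these segments. Ccbe1, Cdh2, Hbegf, Pmaip1, Lox, Pkd2l2 and Impact are on chromosome 18, whose median is 0.56, and Rfc4, Cdc45, Ift57, Hes1, Dnajb11 and Mylk are in the first 50 Mb of chromosome 16, whose median is -0.52. Dnajb11 (-0.54) lay near its segment's median, while Nectin3 (2.15), in the same segment, went against it. Pkd1 is on chromosome 17, with a median of 0.15. With each chromosome's median taken off, 3475 genes were called higher (32.2%) and 3379 lower (31.3%). Contractile genes were then 38 higher and 4 lower, collagens and basement membrane 33 and 6, and cytokines and complement 21 and 5. Each median was that of a whole chromosome, such as -0.33 for chromosome 16, whose parts had medians of -0.52 and 0.30. Centring therefore did not level the parts of chromosomes 16 and 2, here or in the counts given above.

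The same contrast in the THZ1 libraries used other samples of the same 2 lines. Both contrasts came from 1 fit over all 8 libraries and share the SE of each gene, so their calls are not independent. Of the 731 genes called and at least 2-fold apart under DMSO, 708 had the same call under THZ1, 8 the opposite call and 15 no call. There, 24.8% of all tested genes were called higher and 58.3% lower in null cells. Of all 7566 genes called under DMSO, 5873 kept the call, 698 had the opposite one and 995 none.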

How the data were processed

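RNA was measured in 8 libraries, 4 of them used for the comparison described above. The deposited tables give FPKM per gene, made by the authors; Bowtie2, DESeq2 and the mouse build mm10 are named, without versions, in the submitters' processing notes, and the sources used here do not give the quantifier, annotation or strand setting. Genes were matched by Entrez ID to RefSeq, which gave a symbol for 18592 of 18631. Genes with a mean of at least 1 FPKM over the 4 DMSO libraries were fitted with limma 3.58.1 (R 4.3.3) on log2(FPKM + 1), with 1 mean per group over all 8 libraries, a trended prior variance and Benjamini-Hochberg adjustment over the 10805 tested genes. The files give no read counts, so no count model was used, and the depth is an estimate.

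Named genes are Pkd1, Pkd2, the called genes at the top and bottom of the ranking by difference (12 each way, log2(FPKM + 1) averaging 3 or more, libraries of the groups not overlapping), and in each list the 3 called members furthest in each direction. Other genes were named after their values had been seen, and some genes that the rule picks are not reported here. The members and gene lists were chosen with earlier results of these data known. Promoter windows and sequences came from RefSeq tables of GRCm38.p6. The fit was tested on simulated data. Alternatives changed the scaling, pseudocount, filter, prior variance, libraries fitted, replicate block and chromosome centring; the last was chosen after seeing the data.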

Additional observations from a re-analysis of the deposited data

Results flagged for a closer look

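For 11 of the 228 named genes (4.82%), both null libraries lay on one side of both heterozygous libraries under DMSO and on the other side under THZ1. The reversal itself was not tested. Over all 10805 tested genes, 1406 (13%) did the same, 1093 of them higher in null cells under DMSO and lower under THZ1. The median difference of all tested genes was -0.07 under DMSO and -0.28 under THZ1. The THZ1 values of Cldn19, Hoxd3, Lfng and Bhlhe41 were near that -0.28. Their DMSO values were 0.37 to 0.49, so each moved further between the treatments than the median of all genes. These genes were chosen for changing sides, which favours a large shift. Values are the log2 difference, null minus heterozygous, on log2(FPKM + 1).

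One set was higher in null cells under DMSO and lower under THZ1. Inpp5e, a ciliary lipid phosphatase, was 0.52 under DMSO and -0.62 under THZ1. Lfng, which modifies Notch receptors, was 0.49 and -0.33. The clock repressor Bhlhe41 was 0.37 and -0.35, and the Hox gene Hoxd3 was 0.39 and -0.30. The claudin Cldn19 was 0.43 and -0.26, and the lipopolysaccharide co-receptor Cd14 was 0.20 and -0.44.

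The others were lower in null cells under DMSO and higher under THZ1. Irs2, an adapter of the insulin receptor, was -0.98 under DMSO and 0.21 under THZ1. Its FPKM under DMSO was 11.04 and 11.14 in heterozygous and 4.90 and 5.39 in null cells, and under THZ1 10.2 and 10.7 against 12.02 and 12.55. The chemokine Ccl2 was -1.20 and 0.22, with 77.3 and 80.5 FPKM in heterozygous and 99.9 and 84.9 in null cells under THZ1. The integrin chain Itgb8 was -0.43 and 0.17, Hoxb6 was -0.64 and 0.08, and the lysosomal protein Cd68 was -0.37 and 0.46.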

How the results depend on the processing

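Of 228 named genes, 216 kept their direction and call under every one of the 16 alternatives that tested them (64 were not tested in all, mostly for a mean under 5 FPKM). The other 12 were Itgb8, Adam12, Reck, Igf2bp1, Slc16a4, Per2, Lgals9, Anxa4, Cyp4b1, Postn, Cd14 and Cd68. Nearly all named genes were chosen as called genes with large differences, so this does not show how stable all 7566 calls are. Cd14 reversed, to -0.36, with chromosome medians taken off, an alternative chosen after seeing the data. Testing only genes with a mean of 5 FPKM or more, which leaves fewer genes, gave 239 genes at least 2-fold higher and 246 at least 2-fold lower in null cells. Leaving out each replicate in turn gave 6731 to 7005 called genes, 2772 to 2909 higher and 3914 to 4097 lower, with 359 to 377 at least 2-fold higher and 364 to 385 at least 2-fold lower; the lone library of a line is then assumed to vary like the other groups. Counts of list members called moved by over 1.5 times in 45 of 1344 values. Correlations of same-numbered deviations ran from -0.091 to 0.132. With 2 libraries per group they cannot settle whether the replicate numbers pair the samples. With the replicate block, 7562 genes were called, 3130 higher and 4432 lower, with 361 and 370 past 2-fold. Genes near 1 FPKM rest on few fragments, and their differences are understated by the pseudocount.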
